A study of Mus musculus with 6 samples.

Results

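The genes described here are 40 members of the glycolytic pathway and of the hypoxia response, a list given by name, out of 24389 genes in each library. All 40 were found by symbol: 4 glucose and lactate transporters, 15 glycolytic enzymes, 4 enzymes of the pyruvate branch, 5 regulators of the hypoxia-inducible factors (HIF) and 12 other HIF targets. The study compared dorsal pancreas of E13.5 mouse embryos that lacked Bicc1 (Bicc1 KO, 3 libraries) with that of wild-type embryos (WT, 3 libraries), all on a mixed C57BL/6 and ICR background. Bicc1 encodes the RNA-binding protein Bicaudal C1. The labels do not name the knockout allele, the sex of the embryos or how many embryos went into a library, so each p-value rests on the scatter among these 6 libraries alone, which may in part be technical.

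Glycolysis breaks glucose down to pyruvate in the cytosol. Pyruvate is then either reduced to lactate by lactate dehydrogenase or passed to the mitochondria through pyruvate dehydrogenase, which the pyruvate dehydrogenase kinases hold back. HIF is a pair of proteins, an oxygen-labile alpha subunit (Hif1a or Epas1) and the stable partner Arnt. The Egln prolyl hydroxylases mark the alpha subunit for destruction when oxygen is present. When oxygen is low the pair accumulates and switches on many glycolytic genes and a set of further targets, among them the angiogenic factor Vegfa. Control of HIF acts largely on protein, so the mRNA levels given here do not measure its activity. The embryonic pancreas at this stage is a branching epithelium in a vascularised mesenchyme.

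The files held 1 normalised expression value per gene and library, with a lowest value of 0.01. The authors' unit was not stated and depth was unknown, so each gene was compared with itself between libraries and levels of different genes were not ranked. Changes are differences KO minus WT of mean log2(value + 1), with 95% intervals and p-values from limma fitted to the 13911 genes whose values averaged 1 or more. On this scale the change of low genes is understated. Bicc1 itself was 3.96, 4.91 and 4.48 in KO 1, KO 2 and KO 3, against 19.7, 19.5 and 18.2 in WT 1, WT 2 and WT 3, and fell by 1.89 on the log2 scale (SE 0.087, limma adjusted p = 0.00067). In KO its mean was 23.3% of the WT mean. The libraries also differed in a way that followed the GC content of genes and not genotype alone. On the first principal component (57.3% of the variance) the libraries KO 1, KO 2 and WT 3 formed a side opposite to KO 3, WT 1 and WT 2. The members as a whole are therefore also described within these 2 sides and after a correction for GC content, and the corrected value is given for single members where it moved the change by over 1.5 times or changed whether the groups overlapped. Xist, which is made from the inactive X of females, was 3.63, 4.63 and 1.33 in KO, against 1.28, 0.01 and 3.79 in WT, with the higher values in the 3 libraries of the side of KO 1. The mean of 4 Y-linked genes was 2.34, 4.60 and 5.64 in KO, against 5.84, 7.92 and 2.35 in WT. The part of sex in the results was not tested. Of 13 pancreatic epithelial markers all 13 were tested, with summed values of 572 to 861 in KO and 628 to 765 in WT. A higher mean in KO was seen in 6 and a lower one in 7, and 0 had groups apart. After the GC correction 5 were lower in KO with a limma p under 0.05 (5.24% of all genes were). In 3 every corrected KO value lay below every WT value (9.46% of all genes).

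Most glycolytic members had higher values in KO than in WT, while the HIF subunits themselves did not differ beyond their spread. Of the 39 members tested, 31 had a higher mean in KO and 8 a lower one, and the median log2 change was 0.26, against 0.014 over all genes tested. In 17 members every KO value lay above every WT value, against 7.67% of all genes tested, and in 2 every KO value lay below, against 8.77%. Members with an unadjusted limma p under 0.05 were 19 with a higher mean, against 5.89% of all genes, and 0 with a lower mean, against 4.36%. After adjustment over all genes 0 members passed at 0.05, where 0.0144% of all genes did, that is Bicc1 and 4930533K18Rik (named after its value was seen), both lower in KO. Adjusted p-values of the members in limma ran from 0.47 to 0.998. No member is therefore called changed, and the values below are given as measured. In bulk tissue a change in the number of cells of a type and a change in RNA per cell cannot be told apart. Eno2 was the member not tested, with 0.463, 0.824 and 0.869 in KO and 0.721, 0.617 and 0.441 in WT, groups that overlapped.

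**Figure D1:**
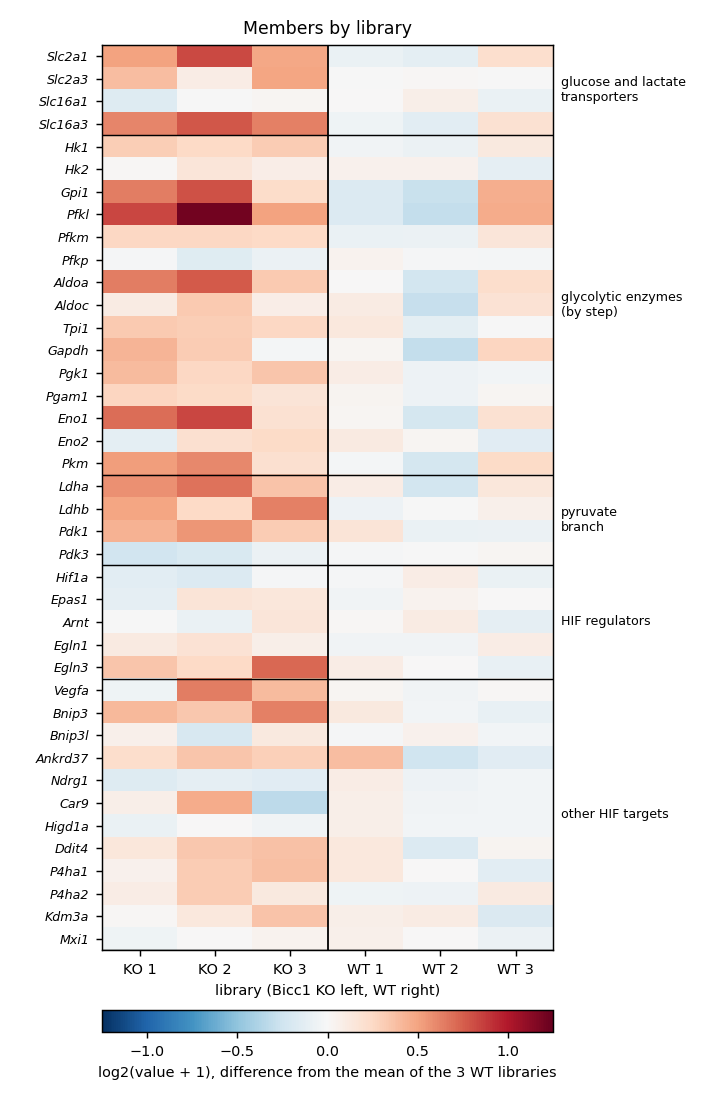
Each row is a member and each column a library, Bicc1 KO on the left and WT on the right. Colour gives the difference of log2(value + 1) from the mean of the 3 WT libraries. Glucose transporters, glycolytic enzymes and the pyruvate branch are mostly red in KO, with KO 3 paler than KO 1 and KO 2 in Gpi1, Eno1 and Pkm, and the HIF regulators are pale except Egln3.

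The members' median change was positive within each side of the first component. These sides were taken from the same values, and each compares a single library of a genotype with the others, so they are no independent check. The median change over the 39 members was 0.24 for KO 1 and KO 2 against WT 3, with 32 members positive, and 0.27 for KO 3 against WT 1 and WT 2, with 32 positive. Over all tested genes these medians were 0.025 and 0.015. A gene's GC content and its change were related across genes, with Spearman's rho of 0.62 over 13385 tested genes and 0.50 over the 39 members, given as descriptions since all genes share the same 6 libraries. The members' median GC content was 51.9%, against 49.3% for tested genes. After the GC correction the members' median change was 0.15, against -0.0082 over all genes, 16 members had every KO value above every WT value (4.62% of all genes) and 17 had a higher mean with p under 0.05 (3.37% of all genes). Hk1 (GC content 56.4%) had a change of 0.11 after the correction and 0.29 before it, and Bnip3 (GC content 41.6%) had 0.54 after it and 0.46 before. Of the members with groups apart, Hk1, Pfkm, Tpi1 and Ddit4 overlapped after the correction, while Pkm, P4ha1 and Kdm3a became apart upwards and Higd1a downwards. Among members whose groups overlapped before and after it, the corrected change was 0.011 for Hk2, 0.096 for Aldoc, 0.10 for P4ha2 and -0.02 for Hif1a. It turned sign for Slc16a1 (0.026), Epas1 (-0.027), Egln1 (-0.046), Bnip3l (0.079), Car9 (-0.046) and Mxi1 (0.030).

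**Figure D2:**
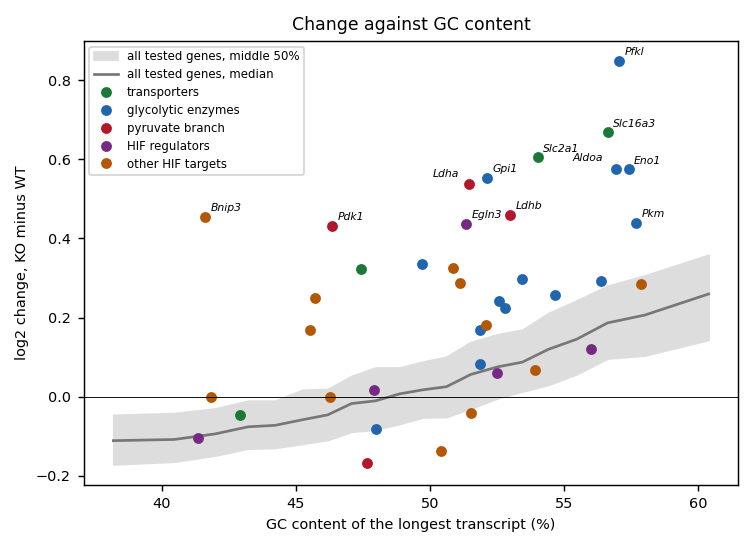
The x axis is the GC content of the longest transcript in percent, and the y axis the log2 change, KO minus WT. Grey shows the median and the middle 50% of all tested genes in 20 bins of GC content, and coloured points are the 39 tested members by role. The grey median runs from -0.11 at a GC content of 38.2% to 0.26 at 60.4%, and Pfkl, Slc16a3, Slc2a1, Ldha, Pdk1, Bnip3 and Egln3 lie above the grey band at their GC content.

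HIF binds DNA at a short core written ACGTG or GCGTG. The stretch before the transcription start is printed here for the member of each role with the lowest p, and for Ldha, which with Bnip3 had the most matches. Each run is 250 bases long, ends at the base before the start and reads 5′ to 3′ on the gene's strand (RefSeq, build GRCm38.p6). Capitals mark ACGTG or GCGTG on either strand, so that CACGT and CACGC are their reverse complements. CACGTG is a match on both strands and counts as 2.
Slc16a3, chr11:120948817-120949066, plus strand: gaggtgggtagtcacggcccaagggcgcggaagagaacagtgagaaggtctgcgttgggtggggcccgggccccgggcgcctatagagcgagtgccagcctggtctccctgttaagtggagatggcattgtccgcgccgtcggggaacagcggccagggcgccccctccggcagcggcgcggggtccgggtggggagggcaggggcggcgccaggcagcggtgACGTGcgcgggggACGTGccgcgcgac
Pgk1, chrX:106186850-106187099, plus strand: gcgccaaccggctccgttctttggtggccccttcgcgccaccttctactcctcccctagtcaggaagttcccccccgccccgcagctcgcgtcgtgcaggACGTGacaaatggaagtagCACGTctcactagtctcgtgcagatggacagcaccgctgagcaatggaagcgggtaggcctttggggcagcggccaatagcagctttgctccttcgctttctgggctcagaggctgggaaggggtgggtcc
Bnip3, chr7:138909507-138909756, minus strand: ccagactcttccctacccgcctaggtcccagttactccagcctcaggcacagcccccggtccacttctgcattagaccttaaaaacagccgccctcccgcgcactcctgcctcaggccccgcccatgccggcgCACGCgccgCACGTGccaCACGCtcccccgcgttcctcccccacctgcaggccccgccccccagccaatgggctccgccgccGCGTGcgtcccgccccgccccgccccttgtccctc
Ldhb, chr6:142507958-142508207, minus strand: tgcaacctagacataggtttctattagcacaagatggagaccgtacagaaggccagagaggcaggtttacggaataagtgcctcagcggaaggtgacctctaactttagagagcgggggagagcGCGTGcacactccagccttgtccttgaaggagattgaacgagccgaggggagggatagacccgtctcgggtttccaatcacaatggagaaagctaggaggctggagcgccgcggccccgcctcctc
Egln3, chr12:54203875-54204124, minus strand: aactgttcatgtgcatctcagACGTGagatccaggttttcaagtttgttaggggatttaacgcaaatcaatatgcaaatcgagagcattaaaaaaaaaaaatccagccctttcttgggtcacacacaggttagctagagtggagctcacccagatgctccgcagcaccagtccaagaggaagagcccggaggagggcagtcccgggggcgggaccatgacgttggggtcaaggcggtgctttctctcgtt
Ldha, chr7:46845554-46845803, plus strand: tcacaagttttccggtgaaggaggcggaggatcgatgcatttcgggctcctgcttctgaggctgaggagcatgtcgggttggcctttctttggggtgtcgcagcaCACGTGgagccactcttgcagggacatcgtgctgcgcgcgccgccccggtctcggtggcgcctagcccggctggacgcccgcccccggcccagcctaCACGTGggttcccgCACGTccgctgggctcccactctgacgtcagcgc

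Slc16a3 and Pgk1 had 2 matches each, Ldha and Bnip3 5 each, and Ldhb and Egln3 1 each. Of the 40 members, 36 had an entry among the RefSeq promoters, and 33 of these (91.7%) held at least 1 match in 1 of their stretches of this length, against 41.5% of all genes in the table. For ACGTG alone the shares were 61.1% of the 36 members and 18.5% of all genes. The 36 members had 53 such stretches, and the 27025 genes of the table had 32851. The genes of the table were not limited to those expressed here or matched to the members in GC content or number of stretches. A match was present in 15 of 16 members with every KO value above every WT value, and in 18 of the 20 other members. A match is a description of letters and not a binding site, and many members were put on such lists because HIF is known to act on them.

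Among the transporters, the glucose carriers Slc2a1 and Slc2a3 and the lactate exporter Slc16a3 had higher values in every KO library, and Slc16a1 did not. Slc2a1 encodes GLUT1, the widespread basal glucose transporter. It was 15.6, 19.7 and 15.25 in KO 1, KO 2 and KO 3, against 10.02, 9.67 and 12.4 in WT 1, WT 2 and WT 3. The lowest KO value was above the highest WT value, the KO mean was 1.57 times the WT mean, and the log2 change was 0.60 (95% interval 0.31 to 0.90). Slc2a3 encodes GLUT3, a transporter with high affinity for glucose. It was 348, 284 and 376 in KO, against 265, 269.5 and 266 in WT. The WT values were nearly equal and the KO values spread above them, with a change of 0.32 (0.07 to 0.57).

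Slc16a3 encodes MCT4, which exports lactate from glycolytic cells. It was 1.90, 2.25 and 1.94 in the KO libraries, against 0.835, 0.731 and 1.17 in the WT libraries. The groups were apart, with a ratio of means of 2.23, the largest among the 40 members, and the change of 0.67 (0.42 to 0.92) had the lowest unadjusted p of the members (0.00033, limma). At these low values the log2(value + 1) scale understates the ratio, and with a pseudocount of 0.1 the change was 1.09. Slc16a1 encodes MCT1, a lactate transporter of wide expression. It was 9.82, 11.1 and 11.4 in KO and 11.2, 11.8 and 10.5 in WT, groups that overlapped, with a change of -0.05 (-0.24 to 0.15). The GC correction left Slc2a1 at 0.49, Slc2a3 at 0.33 and Slc16a3 at 0.48.

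**Figure D3:**
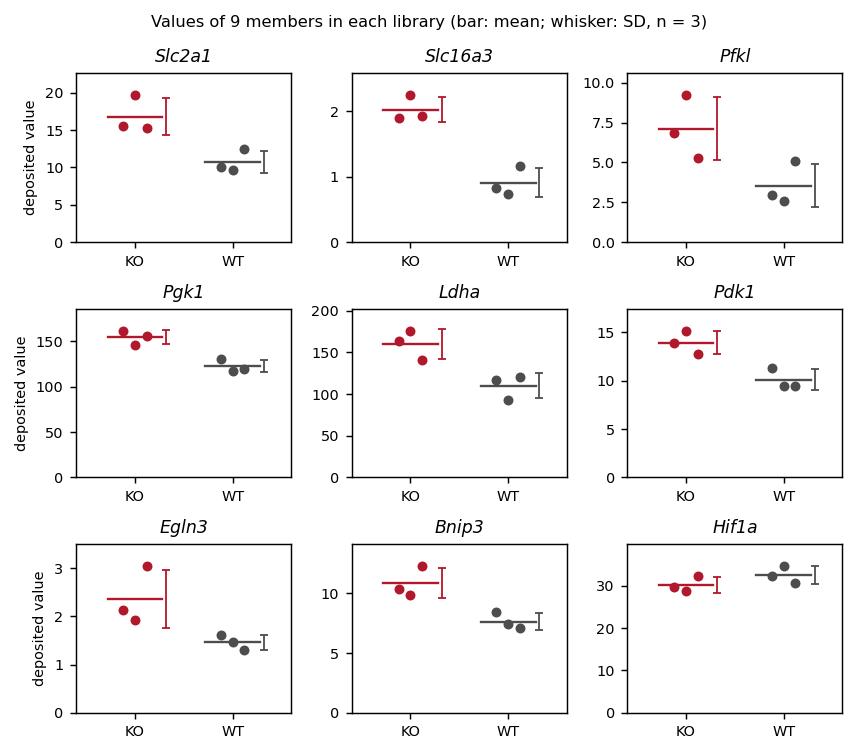
Deposited values of 9 members on linear axes from 0, 1 panel a gene, with Bicc1 KO left and WT right. Points are libraries (1, 2 and 3 from left to right), bars are means and whiskers SD (n = 3 each). In every panel but Hif1a the lowest KO point is above the highest WT point, narrowly so in Pfkl (5.27 in KO 3 against 5.10 in WT 3).

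At the first steps the groups of Hk1 were apart before the GC correction only, and those of Hk2 and Gpi1 overlapped. Hexokinase traps glucose in the cell. Hk1, its housekeeping form, was 2.202, 2.08 and 2.23 in KO and 1.52, 1.46 and 1.81 in WT, with no overlap and a change of 0.29 (0.10 to 0.49). After the GC correction the change of Hk1 was 0.11 and its groups overlapped. Hk2, the form that HIF is known to induce, was 5.35, 5.96 and 5.63 in KO and 5.49, 5.53 and 4.82 in WT. Its groups overlapped, and the change was 0.08 (-0.11 to 0.27). Gpi1, the isomerase that follows, was 22.3, 25.1 and 16.5 in KO and 12.3, 11.3 and 19.5 in WT. WT 3 exceeded KO 3, so the groups overlapped despite a change of 0.55 (0.05 to 1.06).

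Phosphofructokinase makes the step that commits sugar to glycolysis. Its liver-type subunit Pfkl was 6.85, 9.21 and 5.27 in KO and 2.93, 2.58 and 5.10 in WT. The change of 0.85 was the largest of the members on the log2(value + 1) scale (with a pseudocount of 0.1 Slc16a3 had 1.09 and Pfkl 1.01), but its interval of 0.29 to 1.40 was wide, and within each genotype the libraries of the side of KO 1 had the higher values. The muscle-type subunit Pfkm was 3.66, 3.66 and 3.63 in KO and 2.67, 2.70 and 3.33 in WT, with a change of 0.26 (0.05 to 0.47). After the GC correction the change of Pfkm was 0.13 and its groups overlapped. The platelet-type subunit Pfkp was 2.38, 2.08 and 2.26 in KO and 2.54, 2.38 and 2.36 in WT, overlapping, with a change of -0.08 (-0.26 to 0.10). Within the sides, Pfkl differed by 0.55 for KO 1 and KO 2 against WT 3 and by 0.74 for KO 3 against WT 1 and WT 2.

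Aldolase splits the hexose. Aldoa, its main form in embryo and muscle, was 131, 143 and 105 in KO and 83.7, 71.3 and 97.7 in WT, all KO values above all WT values, with a change of 0.58 (0.23 to 0.92), and of 0.39 after the GC correction. Aldoc, the form of brain, was 3.53, 4.30 and 3.47 in KO and 3.56, 2.48 and 3.78 in WT, with overlap and a change of 0.17 (-0.15 to 0.49). The triose phosphate isomerase Tpi1 was 184, 180.25 and 175 in KO and 159, 134 and 145 in WT, with no overlap and a change of 0.30 (0.11 to 0.49). After the GC correction its groups overlapped and the change was 0.19. Gapdh, often used as a reference gene, was 96.3, 89.4 and 70.2 in KO and 72.7, 57.9 and 86.3 in WT. The groups of Gapdh overlapped, with a change of 0.24 (-0.15 to 0.63) that was 0.15 without KO 1, 0.37 without KO 3, 0.093 without WT 2, 0.38 without WT 3 and 0.15 after the GC correction.

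In the lower steps of the pathway, Pgk1 and Pgam1 stood apart with little spread within a group. Phosphoglycerate kinase Pgk1 was 162, 147 and 157 in KO, against 131, 118 and 119.9 in WT. The lowest KO value lay above the highest WT value, with a change of 0.33 (0.16 to 0.51) that was 0.36 and 0.33 within the 2 sides and 0.31 after the GC correction. The mutase Pgam1 was 155, 151 and 143 in KO and 131, 122 and 130.3 in WT, with no overlap and a change of 0.23 (0.07 to 0.38), which was 0.13 after the GC correction. The enolase Eno1 was 98.0, 108 and 68.9 in KO and 61.4, 51.5 and 68.7 in WT. KO 3 and WT 3 were nearly equal, so its separation rests on a narrow margin, with a change of 0.57 (0.16 to 0.99), and of 0.37 after the GC correction. Pyruvate kinase Pkm, which makes pyruvate, was 286, 301 and 228 in KO and 195, 171 and 235 in WT. Here WT 3 exceeded KO 3 and the groups overlapped, with a change of 0.44 (0.10 to 0.78). After the GC correction the groups of Pkm were apart, with a change of 0.23. Of the 14 glycolytic enzymes tested, 13 had a higher mean in KO (53.5% of all genes did). In 8 the groups were apart upwards (7.67% of all genes were), and in 6 after the GC correction (4.62% of all genes). The median change of these enzymes was 0.29, and 0.17 after the GC correction.

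At the pyruvate branch, both lactate dehydrogenase genes and Pdk1 were higher in all KO libraries and Pdk3 was lower in all of them. Ldha, the subunit that favours lactate formation, was 163, 176 and 141 in KO and 117, 93.2 and 120.3 in WT, with a change of 0.54 (0.25 to 0.83). Ldhb, the subunit of oxidative tissues, was 36.0, 30.2 and 39.7 in KO and 24.1, 25.2 and 26.5 in WT, with a change of 0.46 (0.22 to 0.70). The highest KO value of Ldhb was in KO 3 and that of Ldha in KO 2. Pdk1, a pyruvate dehydrogenase kinase and HIF target, was 13.9, 15.2 and 12.7 in KO and 11.4, 9.43 and 9.50 in WT. It had a change of 0.43 (0.20 to 0.66), and of 0.46 after the GC correction. Pdk3, another kinase of this family, was 8.001, 8.30 and 9.12 in KO and 9.52, 9.57 and 9.78 in WT, with a change of -0.17 (-0.34 to 0.01).

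**Figure D4:**
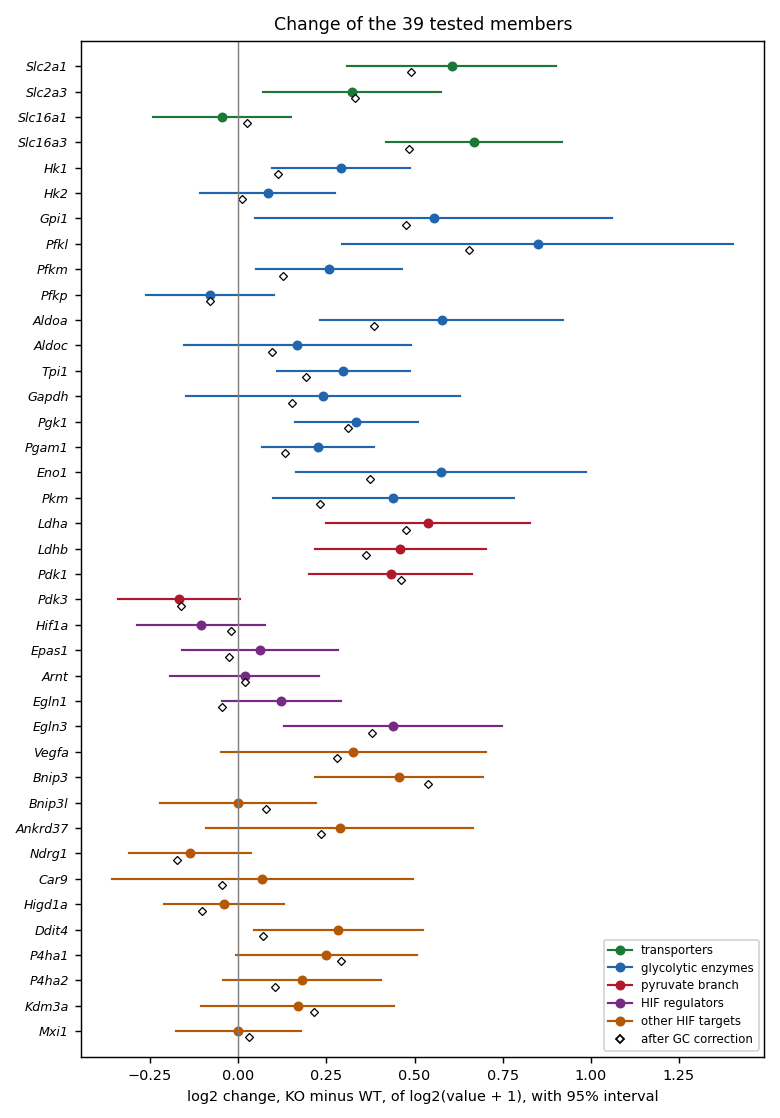
Filled points are log2 changes, KO minus WT, of the 39 tested members with 95% intervals, coloured by role and ordered by pathway step. Open diamonds are the changes after the GC correction. Intervals of 19 members lie wholly above 0 and none lies wholly below, and the diamonds of Slc16a3, Slc2a1, Gpi1, Pfkl, Ldha, Pdk1 and Bnip3 lie between 0.46 and 0.65.

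The HIF subunits and the hydroxylase Egln1 overlapped between genotypes, and Egln3 was apart. Hif1a, the main oxygen-labile subunit, was 29.6, 28.7 and 32.2 in KO and 32.2, 34.7 and 30.6 in WT, with a change of -0.11 (-0.29 to 0.08). Epas1, the HIF2 alpha subunit known from endothelium, was 3.96, 4.995 and 4.92 in KO and 4.23, 4.53 and 4.38 in WT, with a change of 0.06 (-0.16 to 0.28). Arnt was 17.6, 16.6 and 19.7 in KO and 17.9, 19.0 and 16.3 in WT, with a change of 0.02 (-0.19 to 0.23). Overlapping groups do not show that the levels of these subunits were equal. Egln1, the main oxygen-sensing hydroxylase, was 16.1, 16.8 and 15.6 in KO and 14.3, 14.3 and 15.8 in WT. Its change of 0.12 (-0.05 to 0.29) was -0.05 after the GC correction. Egln3, a hydroxylase that is itself induced by HIF, was 2.13, 1.92 and 3.05 in KO and 1.61, 1.47 and 1.302 in WT. The lowest KO value of Egln3 exceeded its highest WT value, and KO 3 was highest, with a change of 0.44 (0.13 to 0.75) and of 0.38 after the GC correction.

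Of the 12 other HIF targets 8 had a higher mean in KO (53.5% of all genes did) and 4 a lower one, with changes of -0.14 to -0.00045 in these 4. Bnip3, a mitochondrial protein of mitophagy, was 10.4, 9.89 and 12.3 in KO and 8.40, 7.44 and 7.06 in WT. It was apart, with a change of 0.46 (0.22 to 0.69) that was 0.46 and 0.58 within the 2 sides. Its relative Bnip3l was 93.1, 77.4 and 96.9 in KO and 87.8, 92.0 and 86.6 in WT, with a change of -0.0010 (-0.22 to 0.22). Ddit4, a stress-induced inhibitor of mTOR, was 16.3, 18.8 and 19.2 in KO and 16.2, 12.9 and 15.0 in WT. KO 1 was only just above WT 1, and the change of 0.28 (0.04 to 0.52) was 0.071 after the GC correction. Vegfa was 8.23, 13.9 and 11.6 in KO and 8.76, 8.28 and 8.70 in WT. KO 2 and KO 3 were above all WT libraries and KO 1 below them, so the groups overlapped, with a change of 0.33 (-0.05 to 0.70). Vegfa had a change of 0.52 without KO 1 and of 0.17 without KO 2.

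The remaining targets overlapped between genotypes, with the exception of Ndrg1. Ndrg1, a stress-responsive cytosolic protein, was 7.66, 7.99 and 7.83 in KO and 9.38, 8.32 and 8.46 in WT, with every KO value lower and a change of -0.14 (-0.31 to 0.04). Car9, the carbonic anhydrase used as a hypoxia marker, was 6.98, 9.51 and 5.06 in KO and 7.03, 6.39 and 6.43 in WT. The highest and the lowest values of Car9 were both in KO libraries, and its change of 0.07 (-0.36 to 0.49) turned to -0.13 without KO 2. The collagen prolyl hydroxylases P4ha1 and P4ha2 had changes of 0.25 (-0.01 to 0.51) and 0.18 (-0.04 to 0.40). P4ha1 was 17.0, 20.5 and 21.6 in KO and 18.0, 16.4 and 14.8 in WT, and after the GC correction all its KO values lay above all WT values, with a change of 0.29. Kdm3a, a histone demethylase, had a change of 0.17 (-0.11 to 0.44), and Ankrd37, a small ankyrin-repeat gene, one of 0.29 (-0.09 to 0.67) in which WT 1, at 2.76, was the highest library. After the GC correction the groups of Kdm3a were apart upwards, with a change of 0.21. Higd1a, a mitochondrial protein, and Mxi1, an antagonist of Myc, had changes of -0.04 (-0.21 to 0.13) and -0.00045 (-0.18 to 0.18). Values ranged over 2.496 to 3.09 in KO and 2.14 to 2.53 in WT for P4ha2, and over 6.65 to 8.65 in KO and 5.67 to 7.13 in WT for Kdm3a. They ranged over 2.35 to 2.65 in KO and 1.41 to 2.76 in WT for Ankrd37, and over 5.66 to 6.08 in KO and 5.87 to 6.40 in WT for Higd1a. Mxi1 ranged over 4.33 to 4.68 in KO and 4.25 to 4.78 in WT, and in all 5 genes the groups overlapped. After the GC correction the groups of Higd1a were apart downwards, with a change of -0.10. Of the 12 other HIF targets 2 were apart upwards (7.67% of all genes were) and 1 downwards (8.77% of all genes were), and 9 overlapped. After the GC correction 3 were apart upwards (4.62% of all genes) and 2 downwards (9.46% of all genes). The median change of the 12 was 0.17, and 0.09 after the GC correction.

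Ratios of paired isozymes within a library, which cancel any scaling of the library but not the trend with GC content, were compared for 10 pairs. Slc16a3 relative to Slc16a1 had log2 ratios of -2.37, -2.31 and -2.56 in KO and -3.74, -4.01 and -3.17 in WT. The KO ratios were all higher, by 1.23 on average, and by 0.83 and 1.32 within the 2 sides. Bnip3 relative to Bnip3l had log2 ratios of -3.17, -2.97 and -2.98 in KO and -3.39, -3.63 and -3.62 in WT, a difference of 0.51 that was 0.55 and 0.53 within the 2 sides. Aldoa relative to Aldoc was higher in all KO libraries, with a difference of 0.36 that was 0.44 and 0.21 within the 2 sides. Pfkp relative to Pfkm was lower in all of them, with a difference of -0.46 that was -0.22 and -0.56 within the sides. For these 4 pairs the exact two-sided permutation test gave p = 0.1, the smallest that 3 against 3 libraries allow, and 0.25 after Benjamini-Hochberg adjustment over the 10 pairs. On the log2(value + 1) scale the difference between the changes of the partners was 0.46 after the GC correction and 0.72 before it for Slc16a3 and Slc16a1, whose GC contents were 56.6% and 42.9%. It was -0.21 after and -0.34 before for Pfkp and Pfkm, 0.29 after and 0.41 before for Aldoa and Aldoc, and 0.46 both after and before for Bnip3 and Bnip3l. In the other 6 pairs the groups overlapped. Ldha relative to Ldhb differed by 0.067, with 2.18, 2.54 and 1.824 in KO and 2.27, 1.89 and 2.18 in WT.

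**Figure D5:**
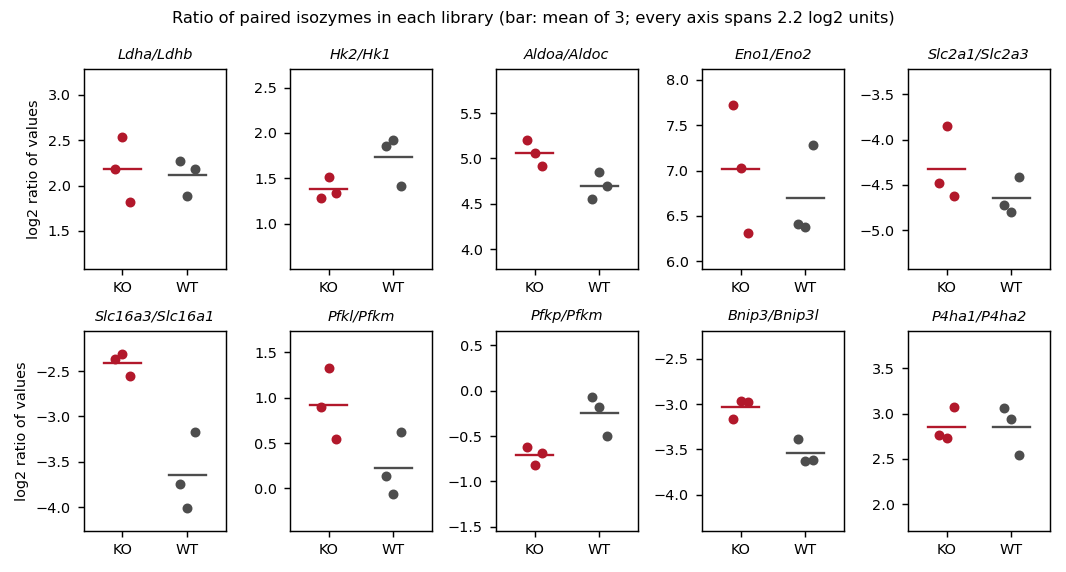
Log2 ratio of the values of 2 related genes in each library, 1 panel a pair, with Bicc1 KO left and WT right. Points are libraries and bars means of 3, and every y axis spans the same number of log2 units. Groups are apart in Aldoa/Aldoc, Slc16a3/Slc16a1, Pfkp/Pfkm and Bnip3/Bnip3l, and overlap in the other panels.

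Further genes of the same pathways gave smaller medians, a difference that was not tested. Of 33 other genes of glucose handling 25 were tested. The KO mean was the higher in 10 and the lower in 15, 0 passed in either direction after adjustment, and the median change was -0.02. In 4 the groups were apart upwards and in 4 downwards, against 7.67% and 8.77% of all genes. After the GC correction these were 1 and 4, against 4.62% and 9.46% of all genes. Slc2a2, the low-affinity glucose transporter of liver and beta cells, was 17.0, 17.6 and 14.8 in KO and 21.5, 22.1 and 20.8 in WT, below in every KO library with a change of -0.37. Mpc1, a subunit of the carrier that brings pyruvate into mitochondria, was 23.4, 21.02 and 23.6 in KO and 28.3, 28.7 and 26.996 in WT, with a change of -0.29. Pfkfb3, which makes an activator of phosphofructokinase, was 8.43, 9.40 and 12.03 in KO and 7.95, 7.38 and 6.82 in WT, with a change of 0.38. Limma gave each of these genes an adjusted p of 0.47.

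Of 39 other HIF targets 32 were tested, 20 with a higher and 12 with a lower mean, a median change of 0.07 and 0 past the threshold. In 7 every KO value lay above every WT value (7.67% of all genes) and in 0 below (8.77% of all genes). After the GC correction 8 were apart upwards (4.62% of all genes) and 1 downwards (9.46% of all genes). Ak4, a mitochondrial adenylate kinase, was 7.23, 8.64 and 7.95 in KO and 5.72, 4.83 and 4.82 in WT. It was apart with a change of 0.55, and of 0.52 after the GC correction. Plod1, a collagen lysyl hydroxylase, and Gys1, a glycogen synthase, had changes of 0.37 and 0.29 with every KO value higher. After the GC correction these were 0.28 for Plod1 and 0.14 for Gys1. Of 14 other components of HIF control all 14 were tested, 8 with a higher and 6 with a lower mean, and 0 passed. In 1 the groups were apart upwards and in 4 downwards, against 7.67% and 8.77% of all genes. Hif3a, a HIF alpha relative, was 17.55, 17.1 and 19.2 in KO and 15.5, 15.9 and 14.4 in WT, a change of 0.22. Eloc and Cul2, parts of the ubiquitin ligase that removes HIF alpha subunits, had changes of -0.21 and -0.14, with every KO value lower. The GC correction left Hif3a at 0.15, Eloc at -0.10 and Cul2 at -0.047. After it 0 of these 14 genes had groups apart in either direction, against 4.62% of all genes upwards and 9.46% downwards.

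Markers of other cell types were read beside these values. Endothelial markers had a higher sum in every KO library, with 152 to 178 in KO and 131 to 141 in WT. A higher mean in KO was seen in 13 of 14 (53.5% of all genes). The groups were apart upwards in 7 of 14 (7.67% of all genes), and in 3 of 14 after the GC correction (4.62% of all genes). Neutrophil markers (3 of 7 tested) summed to 3.43 to 5.89 in KO and 12.96 to 45.2 in WT. Summed values overlapped for erythroid markers (13 of 16 found), with 1125 to 1918 in KO and 913 to 1687.5 in WT. Leukocyte markers overlapped too, with 60.9 to 74.7 in KO and 55.5 to 68.4 in WT. Of 11 leukocyte markers tested 9 had a higher mean in KO (53.5% of all genes did). A limma p under 0.05 was found for 5 of them, against 5.89% of all genes. After the GC correction 7 of the 11 had a higher mean, 3 of them with a limma p under 0.05 (3.37% of all genes). Leukocyte groups were apart upwards in 2 before it (7.67% of all genes) and in 1 after it (4.62% of all genes). The median leukocyte change was 0.23, and 0.069 after the GC correction. It was 0.015 within the side of KO 1 and 0.36 within the side of KO 3. Mesenchymal markers also overlapped, with sums of 652 to 729 in KO and 694 to 705 in WT. Genes of dissection stress summed to 95.9 to 119 in KO and 108 to 114 in WT, and neural genes to 32.1 to 39.3 in KO and 34.4 to 40.8 in WT. Endocrine genes summed to 307 to 559 in KO and 419 to 560 in WT. Of 12 endocrine genes 10 had a lower mean in KO, as had 6463 of the 13911 genes tested. In 3 of the 10 the limma p was under 0.05 (4.36% of all genes). The groups were apart downwards in 2 (8.77% of all genes), and in 4 after the GC correction (9.46% of all genes). In each of these lists 0 genes lay at the lowest value in all libraries. The part of cell composition in the members' values was not tested.

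Sequence shared with other genes touches some members. In 13 members at least 10% of the 50-base words of the longest transcript also occurred, on either strand, in transcripts of other annotated genes: Eno1 (72.2%), Pgk1 (68.0%), Bnip3 (62.5%), Pgam1 (41.5%), Higd1a (36.6%), Pkm (34.4%), Gapdh (27.8%), Ldhb (27.0%), Bnip3l (23.4%), Ldha (16.6%), Aldoa (13.53%), Ankrd37 (11.4%) and Gpi1 (10.2%). How the authors assigned such reads is not given in the sources used here, so the values of these genes are less certain. The 26 other tested members had a median change of 0.17, with 10 apart upwards and 2 downwards. The 13 had a median of 0.44, with 7 apart upwards and 0 downwards. Of all genes 7.67% were apart upwards and 8.77% downwards. After the GC correction the 26 had a median of 0.099, with 8 apart upwards and 2 downwards. The 13 then had 0.31, with 8 upwards and 1 downwards, against 4.62% and 9.46% of all genes. Slc2a1 shared 1.74% of its words, and Slc16a3, Pdk1 and Egln3 shared 0%.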

How the data were processed

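The series holds 6 RNA-seq libraries of E13.5 dorsal pancreas, 3 Bicc1 KO and 3 WT by their titles, prepared with a TruSeq v2 kit, which does not record strand. CASAVA 1.82, Bowtie 0.12.7 and build mm9 are listed in the submitters' processing notes, while for the counting and normalization the sources used here give no method. The deposited files give a normalised signal per Ensembl gene whose unit is not stated, with a lowest value of 0.01, and no reads could be recovered from it, so depth is unknown and no counting error is given.

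Symbols matched 22624 of 24389 identifiers (92.8%) through a table of gene names, and GENCODE M21 gave transcripts for GC content and shared 50-base words. No coordinates of mm9 were used, and promoter sequences are those of RefSeq on GRCm38.p6. The 13911 genes averaging 1 or more were tested on log2(value + 1), unscaled, with limma 3.58.1 (R 4.3.3, trended prior variance, genotype alone in the model, two-sided), with Benjamini-Hochberg adjustment over all tested genes at 0.05. The script was tested on simulated data. The GC correction subtracted a loess curve (span 0.3) of each library's deviations on GC content, for 13385 tested genes (96.2%). Python 3.11.15, pandas 2.3.3 and scipy 1.17.1 made the tables. Named genes are all 40 members, Bicc1 and, of each other pathway list, the 3 lowest p-values. Ldha's promoter was added after its matches were seen. The members and lists were chosen with earlier results of these data known. Alternatives were 3 scalings, 2 filters, robust moderation, a pseudocount of 0.1, GC correction, a threshold of 0.10, a block for the replicate number, a term for the side of the first component, and fits without single libraries. Protein sequences were not used here.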

Additional observations from a re-analysis of the deposited data

How the results depend on the processing

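No member passed an adjusted p of 0.05 with the settings reported or in any alternative (0 members in each; lowest adjusted p 0.13, without WT 3). The count of all genes called, 2, was 1 with no filter on low values, 4 after GC correction, 1 after GC correction with the replicate block, and between 1 and 7 when single libraries were left out (7 without KO 2; 1 without KO 1, KO 3, WT 1 or WT 3). With the replicate number as a block limma called 0 genes, so that Bicc1 (log2 change -1.89) missed the threshold, and 2.81% of genes were higher and 1.91% lower at an unadjusted p under 0.05. Deviations of libraries with the same number were correlated at -0.22, -0.40 and -0.64. Libraries with the same number lie on opposite sides of the first component, so these correlations cannot decide whether the numbers pair the libraries. The members' median of 0.26 was 0.15 after GC correction, with or without the block, and was 0.22 to 0.30 in the other fits. Members with groups apart numbered 18 to 26 in the alternatives, against 19. The counts of 24 and 26 came from fits without 1 library, where more of all genes were apart too. Shares of all genes above and below were 12.5% and 11.1% without KO 1 (26 members). They were 16.7% and 16.4% without KO 3 and 23.8% and 20.95% without WT 3 (24 members each). Higher means with a limma p under 0.05 numbered 14 to 21. The lowest was with the GC correction and block (2.19% of all genes) and the highest with the side as a term (8.04%).

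Of the 39 members, 27 kept a positive and 5 a negative change in all alternatives, and 7 changed sign. After GC correction, with or without the block, the changes were 0.026 for Slc16a1, -0.027 for Epas1, -0.046 for Egln1, 0.079 for Bnip3l, -0.046 for Car9 and 0.030 for Mxi1. With the side as a term they were 0.039 for Bnip3l, -0.023 for Car9 and 0.028 for Mxi1. Leaving out single libraries gave -0.0886 to 0.0129 for Slc16a1, -0.0465 to 0.0702 for Arnt, -0.0642 to 0.0964 for Bnip3l, -0.131 to 0.267 for Car9 (negative without KO 2) and -0.0360 to 0.0326 for Mxi1. The difference between the changes of Slc16a3 and Slc16a1 was 0.46 after GC correction (0.72 before) and that of Pfkp and Pfkm -0.21 (-0.34 before), a comparison chosen after seeing the data. Leaving out 1 library also moved by over 1.5 times the changes of Aldoc (0.090 without KO 2, 0.026 without WT 2, 0.26 without WT 3), Hif1a (-0.059 without WT 2), Ankrd37 (0.16 without WT 2, 0.48 without WT 1), Ndrg1 (-0.089 without WT 1), P4ha2 (0.11 without KO 2) and Kdm3a (0.075 without KO 3, 0.079 without WT 3). The same held for Hk2 (0.049 without KO 2, 0.029 without WT 3) and Pfkp (-0.045 without KO 2). It held for Epas1 (0.148 without KO 1, 0.012 without KO 2, 0.021 without KO 3, 0.040 without WT 1). Higd1a was -0.020 without KO 1, -0.064 without KO 2 and -0.0055 without WT 1. Gapdh and Vegfa moved as much, with the values given above. The causes were not tested. Depth is unknown, so no limit from counting can be given for low genes such as Slc16a3.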
